A study of Mus musculus with 18 samples.

Results

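Peaks of Argonaute 2 (Ago2) on RNA that carry a seed match to miR-27 were followed in mouse colonic epithelium with and without oncogenic K-Ras. A peak was taken when the authors' peak annotation listed miR-27 among its 8-mer, 7-mer or 6-mer seed matches, and it was placed in the class of its longest miR-27 match. There were 337 such peaks among 5554 merged peaks: 64 with an 8-mer, 119 with a 7-mer and 154 with only a 6-mer. No measured level entered this choice. The peaks come from HEAP, which captures a Halo-tagged Ago2 from UV-crosslinked tissue on resin and sequences both the miRNAs and the mRNA fragments bound to it. All mice were C57BL/6, aged 8 to 12 weeks. The control genotype was Halo-Ago2/+; Fabp-Cre/+ with wild-type K-Ras (WT), and the other genotype, Halo-Ago2/+; Fabp-Cre/+; K-Ras-G12D/+ (G12D), added 1 oncogenic K-Ras allele. Both genotypes thus carried the tagged Ago2 allele and a Cre recombinase under a Fabp promoter, which is known for activity in intestinal epithelium. Scrapings of distal colon, enriched in epithelium, received 3 UV doses of 400 mJ/cm2. Of 18 libraries in 6 groups of 3, the 6 pulldown mRNA and 6 miRNA libraries are used here, and the 6 input libraries were not analysed here. A change in a peak therefore cannot be told apart from a change in its transcript, and in such bulk tissue fewer cells of a type cannot be told apart from less RNA per cell. Whether the 3 libraries of a group stem from separate mice is not stated, and p-values describe only the spread among these libraries.

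A miRNA guides Ago2 to a transcript mainly through its seed, the bases near its 5' end, and Ago2 bound in this way recruits factors that repress translation and shorten the mRNA's life. The longer the match to the seed, the stronger the repression usually is, with 8-mer sites above 7-mers and 7-mers above 6-mers. miR-27a and miR-27b are vertebrate miRNAs, each transcribed in a cluster with a miR-23 and a miR-24, and are known for their targets in lipid metabolism and fat cell differentiation. The mature sequences below, from RefSeq with build GRCm38.p6, show what reads these sites. Capitals mark the seed, bases 2 to 8 from the 5' end.
mmu-miR-27a-3p: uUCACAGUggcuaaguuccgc
mmu-miR-27b-3p: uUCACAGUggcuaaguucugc
mmu-miR-128-3p: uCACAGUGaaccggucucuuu
miR-27a-3p lies at chr8:84208727-84208747 and miR-27b-3p at chr13:63300760-63300780, both on the + strand. They share the seed and differ at 1 of 21 positions, position 19, so a seed match cannot tell them apart. By the usual definitions the sites on the target are the following, 5' to 3'. They hold the bases paired to the seed and, in the 8-mer and 7-mer-A1, the A that follows these on the target.
8-mer: ACUGUGAA
7-mer-m8: ACUGUGA
7-mer-A1: CUGUGAA
6-mer: CUGUGA
How the authors defined each class is not given in the files. miR-128-3p is shown because its seed is that of miR-27 shifted by 1 base, so that the 7-mer-m8 site of miR-27 is also the 7-mer-A1 site of miR-128. Of the 119 peaks of the 7-mer class, 38 were 7-mer-m8 and 81 were 7-mer-A1.

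Reads in merged peaks ranged from 54401 to 148770 per WT library and from 148927 to 723937 per G12D library. Of the 337 peaks, 268, 230 and 268 had a read in the 3 WT libraries, against 333, 337 and 337 in the G12D libraries. Peaks were called per genotype: 58 of the 337 were in both lists, 262 in the G12D list only and 17 in the WT list only, and the same split over all merged peaks was 834, 4275 and 445. Markers of colonocytes and goblet cells had peaks in 32 of 38 genes. None of 31 stromal, muscle, blood and endothelial marker genes had a peak, and 4 of 18 enteroendocrine and neural markers had one.

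miR-27a-3p, the more abundant of the pair, rose in the G12D miRNA libraries. It held 10704, 18201 and 10046 normalized reads in WT and 28847, 26554 and 25426 in G12D, and every G12D library lay above every WT library. The mean rose 2.08-fold, from 12984 ± 4530 to 26942 ± 1743 (SD, n = 3 each). In limma this was 1.10 ± 0.19 (SE) on the log2 scale, at an adjusted p of 5.57e-05. Over all 254 tested miRNAs 9.06% were called higher and 6.69% lower, with a median log2 fold change of 0.11. By its mean over the 6 libraries miR-27a-3p ranked 4 of 459 miRNAs, and it took 2.58%, 4.99% and 2.88% of miRNA reads in WT against 6.24%, 5.13% and 5.41% in G12D. The WT library numbered 2 was the highest of the WT libraries for miR-27a-3p and close to the others for miR-27b-3p.
miR-27b-3p held 7111, 6621 and 6120 normalized reads in WT and 9434, 10124 and 8454 in G12D. In normalized reads the groups did not overlap, yet the log2 fold change of 0.50 ± 0.19 did not pass the threshold of 0.05 (limma adjusted p = 0.0657). Without WT replicate 1 it passed, at a log2 fold change of 0.55. As a share of miRNA reads it took 1.72%, 1.81% and 1.76% in WT against 2.04%, 1.96% and 1.80% in G12D, and on that scale the groups overlapped. With libraries set to the same total the log2 fold change was 0.13 (limma adjusted p = 0.612) for miR-27b-3p and 0.74 (limma adjusted p = 0.00451) for miR-27a-3p, and after quantile normalization 0.18 (limma adjusted p = 0.566) and 0.65 (limma adjusted p = 0.00472).
The ratio of miR-27a-3p to miR-27b-3p was 1.51, 2.75 and 1.64 in WT and 3.06, 2.62 and 3.01 in G12D, with WT replicate 2 inside the G12D range.
miR-128-3p was far lower, with 129, 66.7 and 66.6 normalized reads in WT and 58.9, 56.0 and 51.0 in G12D. Its log2 fold change was -0.58 ± 0.40 (limma adjusted p = 0.357).

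**Figure D1:**
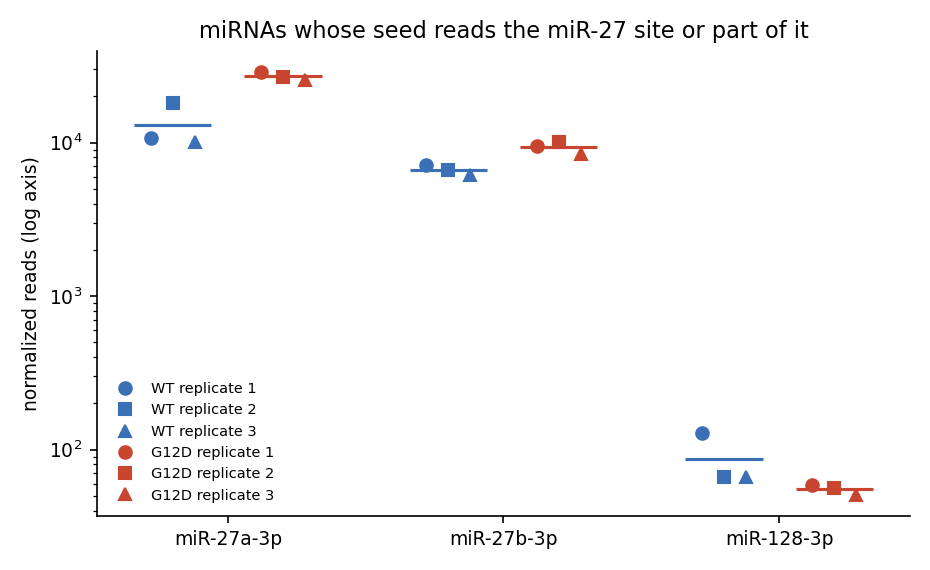
Normalized reads of miR-27a-3p, miR-27b-3p and miR-128-3p in the 6 miRNA libraries on a log axis; each point is a library, its shape the replicate number, and bars are group means. The 3 G12D libraries of miR-27a-3p sit between 25426 and 28847, above all WT libraries, and miR-128-3p is below 130 normalized reads throughout.

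The peaks lay mostly at the 3' ends of coding genes. They carried 296 gene labels on 20 chromosomes, and 314 lay in a RefSeq gene of the same symbol that codes for protein. The authors placed 228 of them (67.7%) in 3' UTRs and 79 (23.4%) in a class named exon, against 54.7% and 31.4% of all annotated merged peaks. 14 were intronic, 8 were in 5' UTRs and 8 carried UTR classes marked with an asterisk that the files do not explain. The share in 3' UTRs was lowest for 8-mers, with 38 of 64, and stood at 85 of 119 for 7-mers and 105 of 154 for 6-mers, while 23 of 64 8-mer peaks were in the exon class. The median distance to the gene's end was 1409 bases for miR-27 peaks and 2233 bases for all merged peaks. Within the 3' UTR class it was 785 and 972 bases. The peaks had a median width of 59 bases.

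Most peaks with a miR-27 site carried seeds of other miRNAs as well. Among the 75 families in the authors' annotation, miR-27 ranked 7 by number of peaks. Of the 337 peaks, 287 also matched another family and 218 matched one by a 7-mer or longer. The same shares over all annotated peaks are not given here, so these counts do not set miR-27 peaks apart. The let-7 family alone matched 10.6% of all annotated peaks. The most frequent partners were miR-15/16, at 34 peaks or 10.1% (8.17% of all annotated peaks), miR-103/107, at 30 peaks or 8.90% (8.50%), and miR-484, at 27 peaks or 8.01% (4.37%). The cluster partners miR-24 and miR-23 matched 22 peaks or 6.53% (5.32%) and 19 peaks or 5.64% (3.49%). A peak in the 3' UTR of Tnpo1, a nuclear import receptor, carried an 8-mer for both miR-27 and miR-23.

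In the pulldown libraries a larger share of reads fell in peaks with a miR-27 site in G12D than in WT, for each site class. All 337 peaks together took 2.63%, 2.66% and 3.25% of peak reads in WT and 4.34%, 5.88% and 4.84% in G12D, so the groups did not overlap. The means were 2.84% ± 0.349 and 5.02% ± 0.786 (SD, n = 3 each). The 8-mer peaks went from 0.645% ± 0.109 to 0.987% ± 0.181, the 7-mer peaks from 0.919% ± 0.126 to 1.68% ± 0.324 and the 6-mer peaks from 1.28% ± 0.119 to 2.35% ± 0.286. No test was made of these shares, and most of the merged peaks came from the G12D list. None of the 337 was among 24 peaks at rRNA and snRNA genes, and outside those 24 the shares were 3.93% ± 0.249 and 5.87% ± 0.429. A few peaks held much of each class. The largest were Clec2h in WT (6.75% of the 8-mer sum) and Muc2 in G12D (17.0%), Cldnd2 (12.9%) and Txnip (9.54%) among 7-mers, and Lypd8 in both genotypes among 6-mers (21.1% and 17.7%).

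**Figure D2:**
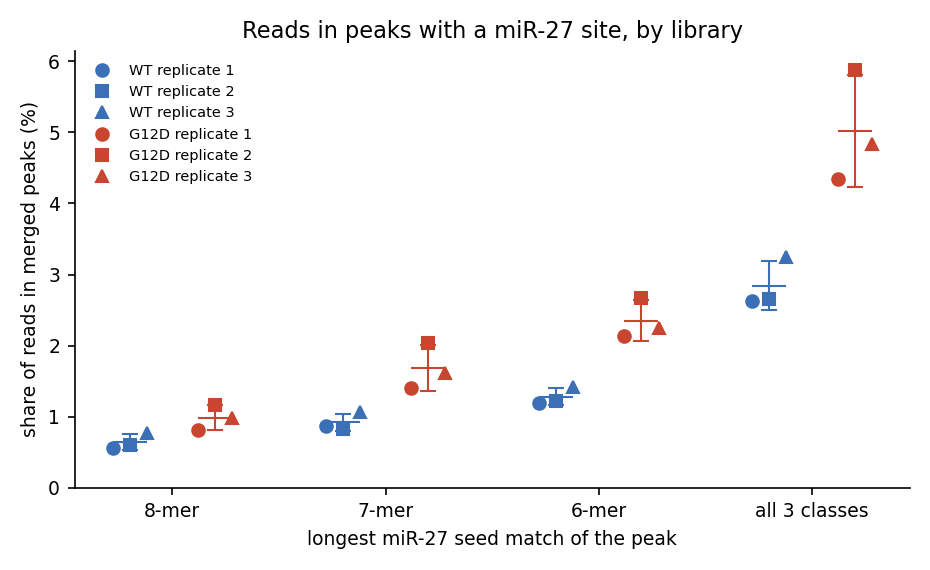
Share of the reads in merged peaks that fell in peaks with a miR-27 site, in percent, by longest seed match and for the 3 classes together; points are libraries, bars the mean with its SD (n = 3). In each class the 3 G12D libraries lie above the 3 WT libraries.

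Over all tested peaks of each class, the 8-mer peaks had the smallest share of rises and the lowest median fold change. This order did not hold among peaks called in both genotype lists, and the difference between classes was not tested. Testing used limma on log2(normalized reads + 1) within 1 fit of all 4438 peaks whose mean reached 5 normalized reads, and 284 miR-27 peaks were among these. The other 53 miR-27 peaks were all in the G12D list only and were not tested, and a peak of that list passes the filter through the group where it is high. 15 of 56 tested 8-mer peaks were called higher in G12D and 7 lower, with a median log2 fold change of 0.62. Over all tested peaks 36.2% were called higher and 12.7% lower, with a median of 1.05. Of the 105 tested 7-mer peaks 38 were higher and 6 lower, at a median of 1.11. For the 123 6-mer peaks these counts were 52 and 7, at a median of 1.43. Together 105 of the 284 (37.0%) were called higher and 20 (7.04%) lower, so the share called higher stood near that of all peaks. In 121 of the 284 all G12D libraries lay above all WT libraries and in 30 all lay below, where the figures for all tested peaks were 43.9% and 15.2%.
In the 83 miR-27 peaks averaging 20 or more normalized reads, where counting error is smaller, 27 were called higher and 15 lower, beside 31.8% and 26.6% of all 1329 such peaks. There the 20 8-mer peaks split into 4 higher and 6 lower (median -0.64), the 30 7-mer peaks into 9 and 2 (0.53) and the 33 6-mer peaks into 14 and 7 (0.44).
The balance of calls moved with the scaling and with which list a peak came from. Of the called miR-27 peaks 84.0% were higher, but 62.7% after quantile normalization, 58.7% with edgeR's TMM scaling of recovered reads and 62.1% with DESeq2. Calls over all tested peaks moved too. Of these, 19.7% were higher and 18.1% lower after quantile normalization, 24.6% and 20.1% with edgeR and 25.5% and 17.4% with DESeq2. Those settings lowered the median of all tested peaks from 1.05 to 0.16, 0.47 and 0.66, and the 8-mer median to -0.29, -0.03 and 0.21, so the sign of the 8-mer median changed with the scaling. In all 3 settings the medians kept the order 8-mer, 7-mer, 6-mer from lowest to highest. Among peaks called in both genotype lists, 8-mers had 3 higher and 2 lower of 15. There 7-mers had 4 and 1 of 24, and 6-mers 4 and 4 of 19. Over all such peaks 13.9% were higher and 25.6% lower. The class medians there were -0.14, 0.31 and -0.35, and the shares called higher 20%, 16.7% and 21.1%, so the order was not kept. Of all peaks of each class, 70.3%, 73.9% and 83.8% were in the G12D list only. In the G12D list only, 94 of 209 tested miR-27 peaks were higher and 3 lower (47.0% and 0.663% over all), and in the WT list only 0 of 17 were higher and 10 lower (0.676% and 74.3%). Fewer peaks were called higher without any 1 of the G12D libraries: 65 without replicate 1, 53 without replicate 2 and 56 without replicate 3, with 16 lower each time. After thinning the reads to the precision of the shallowest library 63 miR-27 peaks were called higher and 17 lower. Of all tested peaks 24.9% were then higher and 10.6% lower.

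**Figure D3:**
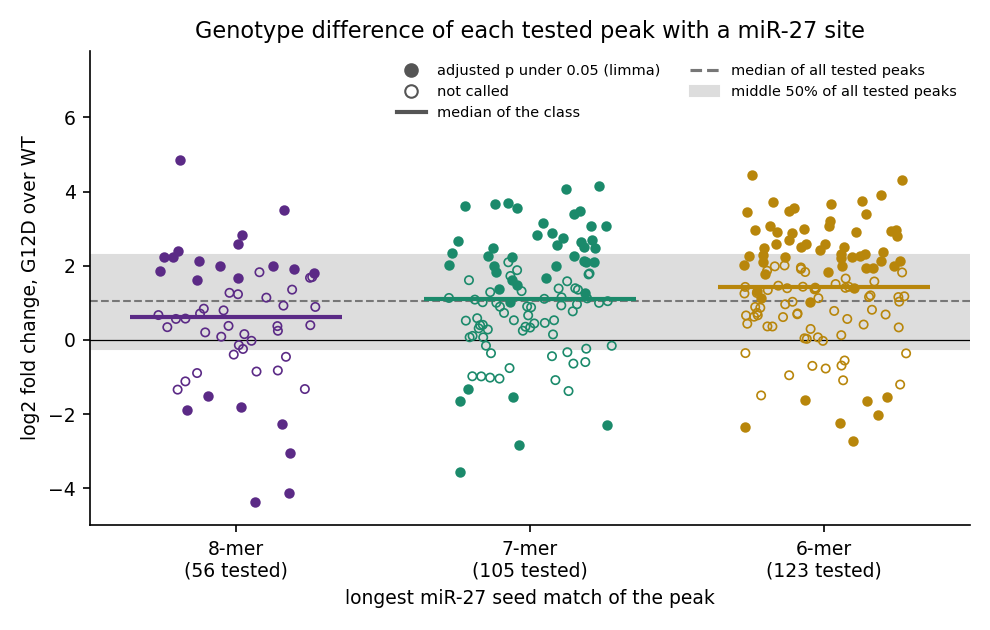
Log2 fold change, G12D over WT, of the 284 tested peaks with a miR-27 site by longest seed match; each point is a peak, filled where limma's adjusted p was under 0.05. Thick lines are class medians (0.62, 1.11 and 1.43), the dashed line is the median of all tested peaks (1.05) and the grey band holds their middle 50%.

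Of the 7 8-mer peaks called lower, 6 are described here, and their genes varied in function. Alas1, the first enzyme of heme synthesis, had its 3' UTR peak at chr9:106239667-106239722 with 97.7, 46.4 and 96.7 normalized reads in WT and 0, 5.98 and 6.46 in G12D. It fell by 4.37 on the log2 scale (SE 0.74, limma adjusted p = 0.000787). The groups did not overlap, yet this peak was listed only among peaks called in G12D.
Slc26a2, a sulfate transporter, had 40.3, 49.3 and 69.6 in WT and 2.18, 9.70 and 6.46 in G12D at one of its 8-mer peaks, which fell by 3.06. Fam46a, a member of a family of noncanonical poly(A) polymerases, had 38.2, 37.7 and 58.0 against 10.9, 7.43 and 7.18 and fell by 2.26 (limma adjusted p = 0.00182). Each of the 3 other falls described here was smaller. Suclg1, a subunit of the succinyl-CoA ligase of the citric acid cycle, had 25.5, 23.2 and 24.5 against 7.63, 3.09 and 7.90 and fell by 1.90. Mylk, the myosin light chain kinase, had 25.5, 37.7 and 38.7 against 5.45, 17.3 and 7.18 and fell by 1.80, a call lost without G12D replicate 1 or 3 and after thinning. Ckmt1, a mitochondrial creatine kinase, went from 63.3 ± 11.7 to 21.2 ± 1.68 and fell by 1.52. Groups were apart in each of these 6 genes.

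The 8-mer peaks that rose included the mucin gene Muc2, regulators of mRNA tails and a semaphorin. Sema7a, a membrane-anchored semaphorin, had the largest rise: 14.9, 0 and 12.9 normalized reads in WT against 176, 176 and 173 in G12D at its 3' UTR (chr9:57962637-57962694). The ratio of means was 18.9, and limma gave 4.86 ± 0.84 on the log2 scale (adjusted p = 0.000904). The WT library with 0 reads was the shallowest, and the 3 G12D libraries agreed within 1.45 normalized reads (SD). Muc2, the main secreted mucin of goblet cells, had 82.8, 69.6 and 52.8 in WT and 244, 242 and 329 in G12D (log2 fold change 1.98 ± 0.33, limma adjusted p = 0.000753). The authors class this peak as 5' UTR, though it lies at 89.7% of the length of the RefSeq gene (chr7:141748008-141748061).
Cpeb4 binds cytoplasmic polyadenylation elements and had 40.3, 55.1 and 42.5 in WT against 162, 213 and 294 in G12D (log2 fold change 2.22 ± 0.35, limma adjusted p = 0.000518). Btg2, an antiproliferative gene whose protein binds the deadenylase complex, had 12.7, 8.69 and 27.1 against 56.7, 79.8 and 84.7 (2.25 ± 0.46, limma adjusted p = 0.00227). In both genes every G12D library was above every WT library.
Pard6b, a cell polarity protein, had no read in any WT library and 7.63, 10.1 and 14.4 in G12D. With a floor of 3 counts over the WT group it was at least 5.64-fold higher. Dhrs9, a retinol dehydrogenase, had 4.25, 2.90 and 0 against 17.4, 17.9 and 20.1, a ratio of pooled reads of 9.71 with a 95% counting interval from 3.25 to 47.7. Such low WT counts leave wide intervals. Tnpo1 had 2.12, 0 and 1.29 against 8.72, 16.7 and 5.03, a ratio of 10.7 with an interval from 2.88 to 89.4, and Zfp597, a zinc finger gene, had 0, 0 and 5.16 against 6.54, 13.2 and 11.5. The Tnpo1 and Zfp597 calls were lost after quantile normalization, with DESeq2, after thinning and without G12D replicate 2, and the Zfp597 call also with edgeR and without WT replicate 1 or G12D replicate 3. The Dhrs9 call was lost without G12D replicate 3.

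Several of the strongest 8-mer peaks did not pass the test. Clec2h, a C-type lectin-related gene, had 63.7, 55.1 and 126 in WT and 39.3, 35.5 and 48.1 in G12D (log2 fold change -0.89 ± 0.39, limma adjusted p = 0.0788), and the groups did not overlap. Pacsin2, which shapes membranes, had 40.3, 92.7 and 111 against 24.0, 38.8 and 41.7 (-1.12 ± 0.44, limma adjusted p = 0.0534), with overlap. Both were called lower by edgeR and by DESeq2, Clec2h without WT replicate 2 and Pacsin2 without WT replicate 1, and Pacsin2 also after quantile normalization and with a pseudocount of 5. Sema6a, a transmembrane semaphorin and a known miR-27 target, had 29.7, 5.80 and 39.95 against 20.7, 32.0 and 17.2, and its groups overlapped fully.

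**Figure D4:**
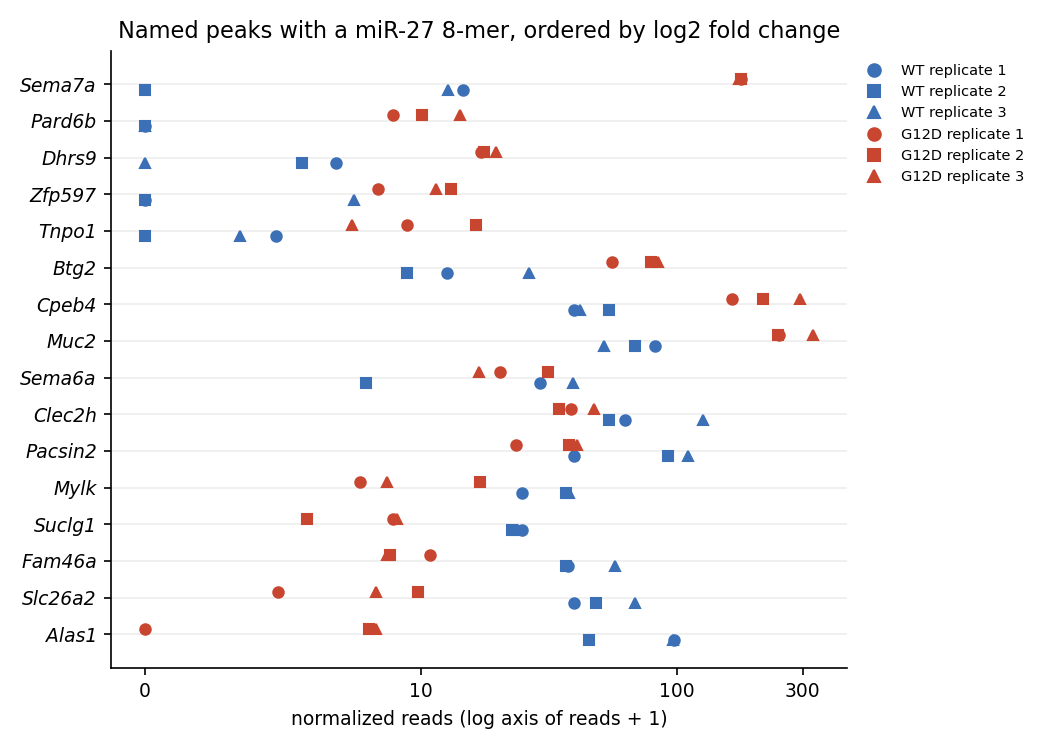
Normalized reads of the 16 named 8-mer peaks in each pulldown library, on a log axis of normalized reads + 1, ordered by log2 fold change; blue points are WT and red points G12D libraries. At the bottom Alas1 has all WT libraries above all G12D libraries, and at the top Sema7a has G12D libraries at 173 to 176 against 14.9 or less in WT.

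The called 7-mer peak with the highest mean was in Txnip, which encodes an inhibitor of thioredoxin and of glucose uptake. Its 3' UTR peak at chr3:96561035-96561095 had 34.0, 34.8 and 54.1 normalized reads in WT against 281, 225 and 274 in G12D. It rose by 2.66 ± 0.33 on the log2 scale (limma adjusted p = 0.000258). Every G12D library lay above every WT library.
The rises with the largest fold changes were from WT levels near 0. Pmp22, a membrane protein of peripheral myelin, had 1 read in the WT group and 18.5, 26.2 and 23.0 normalized reads in G12D, a ratio of 39.2 with a 95% counting interval from 6.94 to 1555. Cmtm4, a MARVEL domain protein, had 0, 2.90 and 0 against 12.0, 31.4 and 19.4, a ratio of 42.3 with an interval from 7.50 to 1678. Foxd2, a forkhead transcription factor, and Tma7, a translation-associated protein, had no WT read. They stood at least 6.30-fold and at least 12.8-fold higher in G12D, respectively. G12D values of Tma7 spread from 2.18 to 29.7, and its call was lost after quantile normalization. A peak labelled RP24-180B11.5 had 6.37, 0 and 0 against 25.1, 33.2 and 38.8.
The 7-mer peaks that fell most were in Gpd2, the mitochondrial glycerol-3-phosphate dehydrogenase, with 25.5, 17.4 and 20.6 against 0, 1.03 and 2.15 (fell by 3.56, limma adjusted p = 0.00135), and in B3gnt7, a glycosyltransferase, with 27.6, 17.4 and 21.9 against 1.09, 3.09 and 2.87 (fell by 2.84, limma adjusted p = 0.00282). Jarid2, a component of Polycomb repressive complex, fell by 2.31, from 21.6 ± 7.66 to 3.44 ± 0.804. Ctr9, of the PAF complex that travels with RNA polymerase, fell by 1.65, from 56.1 ± 23.8 to 15.9 ± 1.32, a call lost after thinning. The last, labelled RP23-273D6.2, fell by 1.54, and its call was lost under 7 of the alternatives run.
Txnip was 1 of the 4 highest 7-mer peaks by mean, and the other 3 were not called. Of all 30 7-mer peaks whose mean over the 6 libraries reached 20 normalized reads, 9 were called higher, 2 lower and 19 not. Cldnd2, a claudin domain gene, had 284, 116 and 271 in WT and 60.0, 115 and 154 in G12D (log2 fold change -1.02 ± 0.45), and was called lower by edgeR, by DESeq2 and without WT replicate 2. Slc40a1, the iron exporter ferroportin, had 67.9, 52.2 and 63.2 against 58.9, 64.4 and 107. Ddx6, an RNA helicase of P-bodies that acts in miRNA repression, had 23.4, 29.0 and 69.6 against 39.3, 196 and 99.8, with overlapping groups, and was called higher without G12D replicate 1, without WT replicate 3, with a pseudocount of 5, with libraries set to the same total and after quantile normalization.

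The 6-mer class held the most called rises. Prpsap1, a phosphoribosyl pyrophosphate synthetase-associated protein, had 0, 0 and 3.87 normalized reads in WT against 31.6, 43.3 and 34.5 in G12D. The ratio of pooled reads was 21.3 with a 95% counting interval from 7.21 to 104 (limma adjusted p = 0.000681). Stard7, which carries phosphatidylcholine to mitochondria, had no WT read at its intronic peak and was at least 7.79-fold higher. Txn1, thioredoxin, rose at a peak of the exon class from a higher base, with 38.2, 14.5 and 74.8 against 136, 244 and 171 (log2 fold change 2.32 ± 0.52, limma adjusted p = 0.00360). In all 3 genes the G12D libraries lay above the WT libraries.
Falls of 6-mer peaks were led by Kdm5a, a histone demethylase, whose 5' UTR peak had 21.2, 29.0 and 68.3 against 4.36, 4.54 and 4.31 and fell by 2.73 (limma adjusted p = 0.00222). Gk, glycerol kinase, had 67.9, 49.3 and 124 against 18.5, 12.4 and 15.1 and fell by 2.23. Hn1 had 99.8, 107 and 147 against 25.1, 26.2 and 32.3 and fell by 2.03. Groups were apart in each. Gk and Gpd2, both enzymes of glycerol-3-phosphate, had called falls, each at a peak of the exon class.
Lypd8, a protein of colonocytes that keeps flagellated bacteria off the epithelium, had the highest peak of all 337, with 601, 371 and 550 in WT and 691, 586 and 753 in G12D (log2 fold change 0.44 ± 0.36, limma adjusted p = 0.322). It was called higher after quantile normalization only. Trp53inp1, a p53 target, had 138, 43.5 and 102 against 134, 188 and 134 and was not called, except with libraries set to the same total or after quantile normalization.

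Some genes carried more than 1 peak with a miR-27 site, and these did not always move together. There were 38 such genes with 79 peaks, and 29 of them had at least 2 tested peaks. In 7 of the 29 all tested peaks were called higher, where 36.2% of all tested peaks of the series were. The same count over all genes with several tested peaks is not given here, so it does not set miR-27 peaks apart. Txnip had 3 of 3, with log2 fold changes of 1.28, 2.66 and 2.498. Sema7a had 2 of 2 (2.13 and 4.86), both 8-mers, and Prom1, a surface glycoprotein of colon crypt cells, 2 of 2 (3.65 and 3.08). Prom1 had 2.12, 0 and 1.29 normalized reads in WT against 26.2, 36.7 and 12.9 in G12D at its 6-mer peak.
In 1 gene, B3gnt7, a peak rose and a peak fell, again with no figure for all genes beside it. The peak that fell was described above, and the other, further on in the same 3' UTR, had 14.9, 31.9 and 25.8 against 48.0, 60.4 and 100.5 and rose by 1.48 (limma adjusted p = 0.0142). Both were 7-mer-A1. Slc26a2 likewise had a second 8-mer peak that was not called, at 27.6, 5.80 and 28.4 against 15.3, 51.0 and 34.5. Zfp36, which binds AU-rich elements and destabilises mRNAs, had a 7-mer peak at 84.9, 81.1 and 63.2 against 41.4, 49.3 and 55.3 that was not called (log2 fold change -0.64) and a 6-mer peak that rose by 3.07.

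A list of 36 genes reported as miR-27 targets gave small counts. Of these genes 9 had any Ago2 peak, and 2 had a peak with a miR-27 site, among them Sema6a, described above. Over all gene labels with a peak, 296 of 2568 had a peak with a miR-27 site. By peaks it was 3 of 25 on the list and 337 of 5554 over all merged peaks, so the share on the list was not lower. In lipid metabolism 7 peaks in 6 of 34 genes had a site, all tested, with 2 higher and 0 lower (median 0.88). All 62 tested peaks of that list had 26 higher and 4 lower (median 1.30). Acsl3, an acyl-CoA synthetase, had 17.0, 17.4 and 2.58 against 63.3, 49.7 and 43.8 and was called higher (log2 fold change 2.32 ± 0.61, limma adjusted p = 0.00881). The fatty acid synthase Fasn, the citrate lyase Acly and the desaturase Scd2 were not called, with log2 fold changes of 0.88, 0.07 and 0.15.
In RAS and MAPK signalling 2 of 32 genes had a site, and all 31 tested peaks of that list had 13 higher and 4 lower (median 1.49). Ksr1, a scaffold of RAF, MEK and ERK, had 2.12, 0 and 0 against 16.4, 16.9 and 15.8 at an intronic 6-mer peak and was called higher (limma adjusted p = 0.00135), and the receptor gene Erbb3 was too low to be tested. Among WNT and stem cell genes all 3 peaks were called higher, the 2 of Prom1 and 1 in Ctnnb1, the gene of beta-catenin, which had 2.12, 0 and 2.58 against 8.72, 7.84 and 10.1. All 30 tested peaks of the WNT and stem cell list had 18 higher and 1 lower (median 1.94). Smad7, an inhibitor of TGF-beta signalling, had 2.12, 0 and 2.58 against 10.9, 14.2 and 2.87 (log2 fold change 1.99 ± 0.75, limma adjusted p = 0.0440). All 17 tested peaks of the TGF-beta list had 6 higher and 1 lower (median 1.08).
Of 8 miR-27 peaks in 6 colonocyte and goblet cell genes, 2 were called higher, both in Muc2, and 0 lower (median 0.69). All 177 tested peaks of that list had 73 higher and 22 lower (median 1.16). In the RNA silencing list Ago2 itself had a 6-mer peak in its 3' UTR with 17.0, 14.5 and 20.6 against 10.9, 6.81 and 5.75, which did not pass the test (log2 fold change -1.09, limma adjusted p = 0.100), although the groups did not overlap. No peak of the 20 ubiquitin ligase and F-box genes had a miR-27 site, but only 7 of these genes had any peak, with 15 peaks in all. Over all annotated peaks 6.19% had a miR-27 site, so 0 of 15 is not read as an absence.

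To set each peak beside its own transcript, its level was divided by the summed other peaks of the same gene. Of the 209 miR-27 peaks that could be compared, 29 were called higher and 17 lower, where all 2992 such peaks gave 17.7% higher and 13.4% lower. The classes differed in balance: 8-mers had 2 higher and 6 lower of 39 (median -0.55), 7-mers 10 and 8 of 74 (-0.01) and 6-mers 17 and 3 of 96 (1.21), beside a median of 0.34 for all peaks. That difference between classes was not tested. Of 82 peaks called higher by themselves, 21 were also higher against their gene, 60 were not called and 1 was lower. Of 13 called lower by themselves, 9 were also lower against their gene. Both tests use the peak's own level, so their calls are not independent. The same counts over all compared peaks are not given here, so these do not set miR-27 peaks apart.
Fam46a fell while its single other peak went from 0 reads in WT to 12.2 normalized reads in G12D. The relative change was -5.83 ± 0.65 (limma adjusted p = 0.00113). Without a WT read, that other peak reached the minimum mean for the ratio only through the G12D libraries. The size of the ratio also hung on the pseudocount, and with a pseudocount of 5 it was -3.56 (limma adjusted p = 7.34e-05). The Fam46a ratio has no value under the stricter minimum for other peaks or after thinning. Pfn1, the actin-binding profilin, fell by 1.53 at its 6-mer peak while its other peak went from 10.5 to 58.2. The Pfn1 ratio lost its call without WT replicate 3 or G12D replicate 2 or 3, and its own call without G12D replicate 2.
In Muc2 the other 24 peaks together went from 627 to 3434 normalized reads, and the ratio of the 8-mer peak to them did not pass the test (log2 -0.50 ± 0.50, limma adjusted p = 0.468). Nor did the ratios of Sema7a, where the other 6 peaks went from 6.91 to 85.8 (ratio 1.40 ± 0.96, limma adjusted p = 0.290), and of Alas1, where the other 4 went from 88.4 to 17.8 (ratio -2.13 ± 0.85, limma adjusted p = 0.0831). The second 8-mer peak of Sema7a rose less than the summed other peaks of its gene and was the 1 peak called higher by itself and lower against its gene (ratio -2.06 ± 0.54). That sum included the first 8-mer peak of Sema7a, which went from 9.25 to 175 normalized reads and has a miR-27 site itself.
Peaks that rose against their gene included those of RP24-180B11.5 and Btnl5-ps. RP24-180B11.5 had 1 other peak, which went from 297 to 41.8 normalized reads, and the ratio rose by 6.90 ± 0.74 (limma adjusted p = 0.00107). Btnl5-ps is a butyrophilin pseudogene whose reads may be shared with near-identical copies. Its miR-27 peak had 9.19 ± 7.33 and 11.2 ± 2.72 normalized reads while its other peak went from 91.4 to 1.69. Lypd8 gave a ratio of 2.87 ± 0.53 (limma adjusted p = 0.00484), since its other 10 peaks went from 7948 to 1483 normalized reads while its miR-27 peak did not pass the test.

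**Figure D5:**
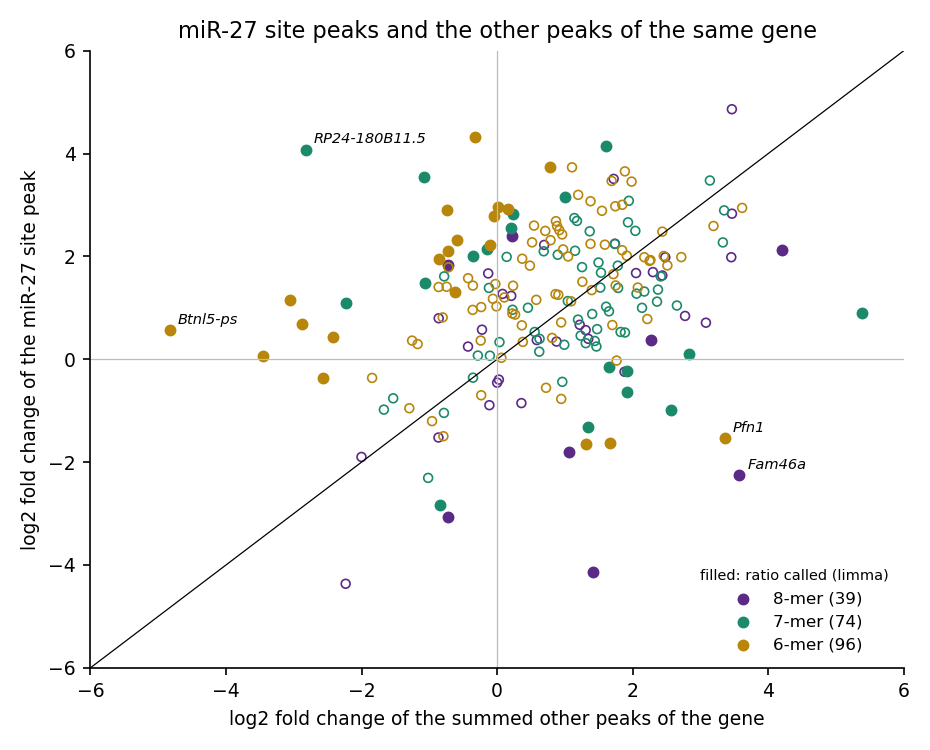
Log2 fold change of each of 209 miR-27 site peaks (vertical) against that of the summed other peaks of its gene (horizontal), coloured by longest seed match; points on the diagonal moved with their gene, and filled points had a ratio called by limma. Fam46a and Pfn1 lie below the diagonal and RP24-180B11.5 and Btnl5-ps above it.

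Peaks were also split by whether they held another family's seed of 7 bases or more. Of the 100 tested peaks without one, 42 were called higher and 8 lower (median 1.496), and of the 184 with another such seed 63 were higher and 12 lower (median 1.14). For 8-mers alone the split was 6 higher and 4 lower of 22 (median 0.73) without, and 9 and 3 of 34 (median 0.57) with, another seed. Beside these stand 36.2% higher and 12.7% lower of all tested peaks (median 1.05), for which the same split is not given here. Among the 15 families with at least 30 tested 8-mer peaks, medians ran from -0.32 to 1.73, and the 0.62 of miR-27 ranked 6 from the lowest. The median was 0.67 for 8-mers of miR-24 and 1.05 for those of miR-23, the cluster partners. At an adjusted p under 0.05 in the authors' deposited table, 114 of the 337 peaks were higher and 23 lower, against 38.0% and 11.1% of all peaks with such a value. Of the miR-27 peaks called by limma, 82 of the 105 higher and 20 of the 20 lower were also called in the same direction in the authors' deposited table. Over all tested peaks it was 1459 of 1607 higher and 513 of 563 lower. Both sets of calls rest on the same libraries.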

How the data were processed

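The normalized values are a signal that the authors deposited, reads per merged peak or mature miRNA divided by the authors' factor per library. The low values were whole multiples of 1 step per library, and 100.0% of values came out as whole read counts within 0.01 of a read. The whole number that the authors deposited as a count per peak was not used. STAR 2.5.2b, DESeq2 and the builds mm10 and GRCm38 are named in the submitters' processing notes, without roles. Which peak caller and counting rules were used, and whether libraries were pooled, is not given in those sources. Annotation classes, gene labels and seed matches are the authors', per the file headers. So are the log2 fold changes and adjusted p-values of the deposited differential tables. The deposited score of each peak list was used only to rank peaks within that list. Coordinates are GRCm38, counted from 1, and gene positions came from RefSeq.

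limma 3.58.1 (R 4.3.3) was run with a variance trend on log2(normalized reads + 1), G12D against WT, over 4438 peaks (mean of 5 or more) and 254 miRNAs (mean of 10 or more). Adjustment was by Benjamini-Hochberg over all features tested, at 0.05. Low features have fold changes that are too small on this scale. The ratio to the gene used log2(peak + 1) minus log2(sum of the gene's other peaks + 1), where that sum had a mean of at least 5. edgeR 4.0.16 and DESeq2 1.42.0 were run on the recovered reads as alternatives. The scripts were tested on simulated data. Counting intervals are exact at 95% and cover, like the floor of 3 counts, counting error only.

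Named peaks were chosen by rule. From the 8-mer class came the 6 highest means and the 6 largest called changes in each direction with groups apart, from the 7-mer class 4 and 5, and from the 6-mer class 3 and 3. The rule added the 3 largest called ratios to the gene in each direction and peaks in genes on the list of miR-27 targets. Ckmt1, genes with several peaks and members of the gene lists were named beyond the rule after their values were seen. Some peaks that the rule chose are not reported here. The peaks and lists were chosen with earlier results of these data known. Replicate numbers were shared between genotypes, but same-numbered pulldown libraries did not deviate together (correlations 0.041, -0.036 and -0.0076), so no block was used. Genomic sequence was not used here, so the sites themselves are not printed.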

Additional observations from a re-analysis of the deposited data

How the results depend on the processing

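The 6 WT pulldown and miRNA libraries and their G12D counterparts limit all of these counts, and the WT pulldown libraries were the shallower. Thinning and the restriction to peaks called in both lists were added after the data were seen, the rest were planned. Called higher and lower peaks were 6 and 11 (8-mer), 18 and 10 (7-mer) and, higher only, 28 (6-mer) after quantile normalization. They were 7 and 14, 24 and 16, and 33 and 15 with edgeR, and 6 and 13, 25 and 14, and 33 and 12 with DESeq2. Thinning gave 7 higher 8-mers, 22 higher and 3 lower 7-mers and 34 higher 6-mers. With peaks called in both lists only, refitted alone, they were 3 and 2, 3 and 1, and 2 and 4. Leaving out 1 library gave 6 to 14 higher and 6 to 9 lower 8-mers, 20 to 36 and 4 to 10 7-mers, and 27 to 54 and 5 to 8 6-mers. Ratios to the gene then had 14 to 43 higher and 7 to 21 lower, and 26 lower with a pseudocount of 5, 11 lower with other peaks at 20 or more, and 19 higher and 9 lower after thinning. The log2 fold change of miR-27a-3p ranged from 0.95 to 1.38 without 1 library and that of miR-27b-3p from 0.44 to 0.57, called without WT replicate 1 (0.55, limma adjusted p = 0.0381; 0.0657 with all). They were 0.74 and 0.13 with libraries set to the same total, 0.65 and 0.18 after quantile normalization, 0.84 and 0.29 with edgeR and 1.00 and 0.44 with DESeq2, with the call of miR-27a-3p kept in each. Shares outside rRNA and snRNA genes were 3.93% and 5.87%. The cause of these moves was not tested.

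With the replicate number as a block, 8-mers had 14 higher and 8 lower, 7-mers 38 and 7, 6-mers 53 and 8, and ratios to the gene 32 and 14, and miR-27a-3p kept its call. Of the named peaks, Cldnd2, Pacsin2 and Ddx6 were then called and RP23-273D6.2 was not. The labels do not say whether equal numbers pair libraries, and 3 libraries per genotype cannot settle it. Among 45 named results, 27 kept their side of the threshold and their direction under every alternative. Directions reversed for 4 of these, all peaks that were not called: Btnl5-ps (quantile -0.29, edgeR -0.38, DESeq2 -0.16, from -0.12 without WT replicate 1 to 1.13 with 1 library left out), Sema6a (quantile -0.11, edgeR -0.67, DESeq2 -0.47, -0.039 without G12D replicate 2, and from -0.59 without WT replicate 2 to 0.70), Slc40a1 (edgeR -0.24, DESeq2 -0.038) and Lypd8 (edgeR -0.12).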
